A study of Mus musculus with 16 samples.

Results

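Kinesins are motor proteins that walk along or take apart microtubules. Their expression was followed in skin carcinomas of p53-deficient mice and in normal mouse skin. The family was taken as every probeset (a set of probes read as 1 value) whose array annotation gives a single gene symbol of the form Kif or Kifc plus a number. This gave 104 of 45037 probesets and 41 of 18193 genes, with the probeset of highest mean signal across the arrays standing for each gene. By known role, 14 were counted as mitotic, 15 as transport and 12 as other kinesins.

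Affymetrix MOE430 2.0 arrays measured total RNA from 16 mouse samples of the FVB background, 1 array each. There were 5 pRbp53 tumors (k14Cre;p53loxP/loxP;pRbloxP/loxP), 7 p53 tumors (k14Cre;p53loxP/loxP) and 4 samples of normal, wild type control skin. The keratin 14 promoter drives Cre, so that deletion reaches the basal cells of stratified epithelia and not the stroma of a tumor. By histology, 6 tumors were undifferentiated or spindle (1 undifferentiated and 5 spindle, of which 4 were pRbp53), 3 were poorly differentiated (all p53) and 3 were mixed. Nothing states that the samples come from separate animals, so p-values measure only the spread between these samples. Values are log2 signals, differences are on the same scale, and a probe's brightness depends on its sequence, so levels are compared between arrays and not between genes.

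The targeted Rb1 averaged 7.70 ± 0.35 in pRbp53 tumors (SD, n = 5), 8.06 ± 0.33 in p53 tumors (n = 7) and 9.26 ± 0.25 in control skin (n = 4). Where its probeset lies relative to the deleted part is not given in the sources used here, and pRbp53 and p53 tumors did not differ in it by the test (-0.36, limma adjusted p = 0.601). Control skin 3 and p53 tumor 7 stood apart in actin 3' minus 5' signal, a sign of RNA quality, with 1.33 and 1.67 against 0.21 to 0.68 on the other arrays. Control skin 2 and 4 were closer to each other than any other pair (SD of their difference 0.22, against 0.41 for the next pair). Keratinocyte markers averaged 5.95 ± 2.10 in tumors (n = 12) and 12.20 ± 0.10 in control skin, and skeletal muscle markers 5.61 ± 1.22 in tumors and 13.08 ± 0.10 in control skin. In whole tissue, fewer cells of a type and less RNA per cell cannot be told apart.

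In a dividing cell, mitotic kinesins separate the spindle poles, move and align chromosomes, trim microtubule ends and build the midzone where the cell is cut. Transport kinesins work mainly between divisions and carry vesicles, mitochondria and ciliary parts. Many mitotic kinesin genes are silent in resting cells and active in G2 and M phase. A DNA element known as the cell cycle genes homology region (CHR), which the DREAM and MuvB complexes bind, lies near the starts of many such genes.

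Most mitotic kinesins rose in the tumors, whereas transport kinesins moved both ways or did not pass the test. In tumors against control skin, 8 of 14 mitotic kinesins were higher and 0 lower at an adjusted p of 0.05, beside 6.36% of all probesets higher and 6.85% lower. The median difference of the class was 1.26, with 14 of 14 members above 0 (61% of all probesets were), beside a median of 0.07 over all probesets and of 0.06 over all genes. Of 15 transport kinesins, 1 was higher and 2 lower, with a median of -0.04. Among the 12 others, 1 was higher and 1 lower, with a median of 0.25. In all, 13 of 41 kinesins passed the test, beside 13.2% of probesets and 16.7% of genes. The medians of the mitotic and transport classes lay 1.30 apart.

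**Figure D1:**
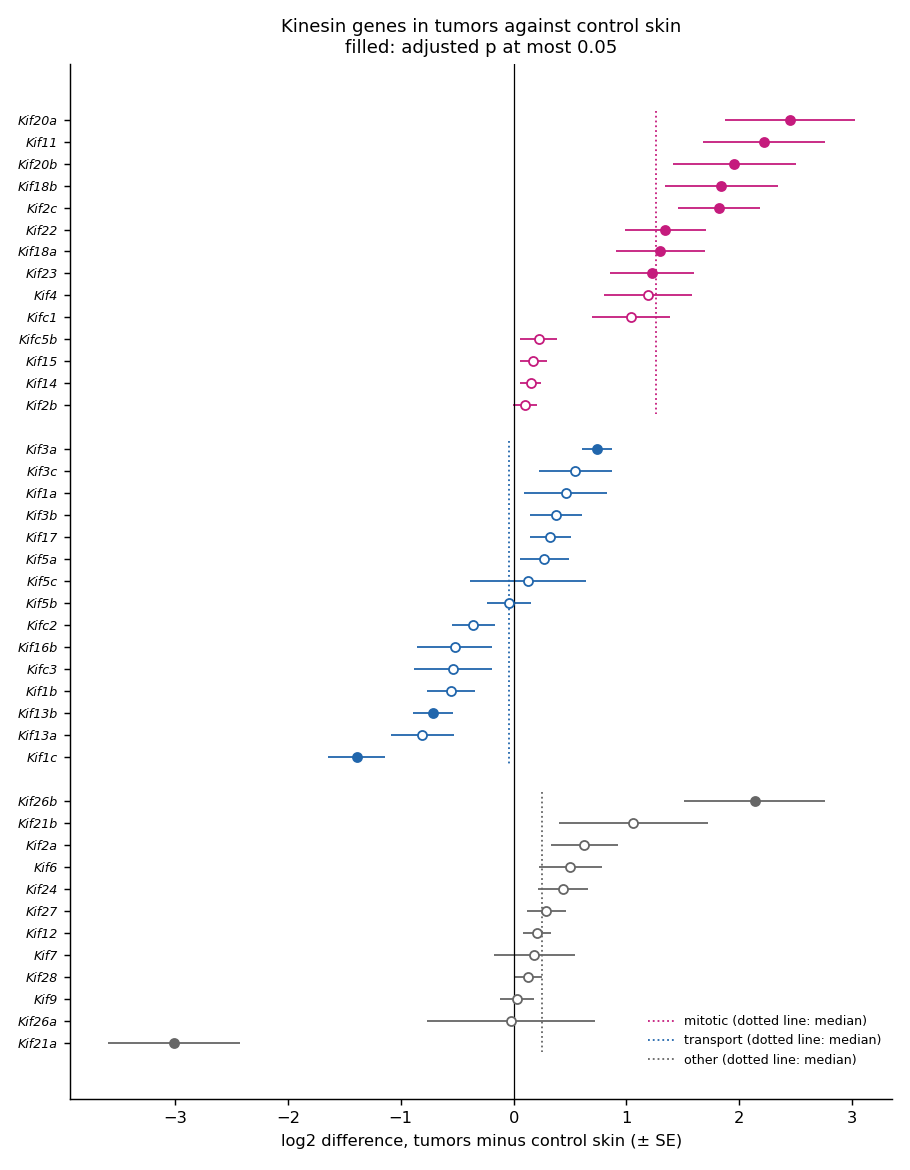
Difference in log2 signal, tumors (n = 12) minus control skin (n = 4), for each of the 41 kinesins by role, with its SE as a bar. Filled points passed the test (adjusted p of 0.05) and dotted lines mark class medians, 1.26 for mitotic, -0.04 for transport and 0.25 for other kinesins. Differences run between 2.45 for Kif20a and -3.01 for Kif21a.

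The largest mitotic difference was that of Kif20a, a motor of the central spindle needed for cytokinesis. It measured 7.27, 9.39, 6.40, 8.09 and 8.22 in pRbp53 tumors 1 to 5, between 5.64 and 9.54 with a median of 8.31 in p53 tumors, and 4.74, 5.99, 5.56 and 5.83 in control skin 1 to 4. Only p53 tumor 7 fell within the control range. The difference was 2.45 ± 0.58 (SE), 5.47-fold, with an adjusted p of 0.0094.

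Kif11, the kinesin-5 that slides antiparallel microtubules apart so that the poles separate, followed. Its signals were 6.36, 8.67, 5.33, 7.37 and 7.31 in pRbp53 tumors, 5.49 to 8.62 (median 7.65) in p53 tumors, and 4.37, 5.38, 4.67 and 5.45 in control skin. All tumors but pRbp53 tumor 3 exceeded every control sample. The difference was 2.22 ± 0.54, 4.66-fold (adjusted p = 0.0112), and of its other probesets 1 passed (1.88) and 1 did not (1.75, adjusted p = 0.0582).

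Kif20b, also a cytokinesis motor, had 7.07, 8.62, 5.79, 7.58 and 7.97 in pRbp53 tumors. In p53 tumors it ranged from 4.91 to 8.80 with a median of 7.52, and in control skin it was 4.77, 5.83, 5.27 and 5.76. Here p53 tumor 7 and pRbp53 tumor 3 both overlapped control skin, and the others lay above it. The difference was 1.96 ± 0.54 (3.88-fold, adjusted p = 0.0244). Its 3 other probesets, all dim, gave 0.92, 0.32 and 0.26 and did not pass, and the mean of all 4 differed by 0.87 (adjusted p = 0.0428).

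The kinesin-8 motors Kif18a and Kif18b keep spindle microtubules short at their plus ends. Kif18b measured 7.30, 8.83, 6.37, 7.50 and 7.49 in pRbp53 tumors, 5.77 to 9.19 (median 6.89) in p53 tumors, and 5.26, 5.40, 5.99 and 5.61 in control skin. Kif18a measured 6.51, 7.92, 5.90, 6.68 and 7.03 in pRbp53 tumors, 6.02 to 8.54 (median 7.10) in p53 tumors, and 5.38, 5.77, 5.52 and 5.97 in control skin. One tumor overlapped control skin in each case, p53 tumor 7 for Kif18b and pRbp53 tumor 3 for Kif18a. The difference was 1.84 ± 0.50 for Kif18b (3.58-fold, adjusted p = 0.0218) and 1.30 ± 0.40 for Kif18a (2.46-fold, adjusted p = 0.0394). The other, dim probeset of Kif18a gave 0.15 and did not pass.

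Kif2c, which depolymerises microtubules at centromeres and corrects wrong attachments, was the mitotic kinesin whose groups were fully separate. Tumors of the pRbp53 genotype had 7.57, 9.35, 7.24, 8.02 and 7.86, p53 tumors 6.88 to 8.35 (median 7.94), and control skin 5.58, 5.84, 6.82 and 5.85. The gap was narrow, between 6.88 in p53 tumor 7 and 6.82 in control skin 3. The difference was 1.82 ± 0.36 (3.54-fold, adjusted p = 0.0031), and 3 of its 4 probesets passed. Groups did not overlap for 4 of 41 kinesins in this comparison, beside 6.86% of probesets and 9.39% of genes, so the family was near the share of genes.

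Kif22, a chromosome-bound motor that pushes chromosome arms outward, had 9.16, 10.17, 8.62, 9.93 and 9.24 in pRbp53 tumors, 7.87 to 9.97 (median 9.26) in p53 tumors, and 7.06, 8.01, 8.64 and 8.27 in control skin. Its difference was 1.35 ± 0.36 (2.54-fold, adjusted p = 0.0199), and all 3 of its probesets passed. Kif23, the motor of centralspindlin, had 8.12, 9.41, 7.16, 8.45 and 8.25 in pRbp53 tumors, 7.12 to 9.39 (median 8.33) in p53 tumors, and 6.98, 7.32, 6.80 and 7.25 in control skin. Its difference was 1.23 ± 0.37 (2.34-fold, adjusted p = 0.0398). Its other probesets gave 1.42 (adjusted p = 0.0669) and 0.09 and did not pass, and the mean of all 3 differed by 0.91 (adjusted p = 0.0534). In both genes pRbp53 tumor 3 and p53 tumor 7 were the tumors that overlapped control skin.

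**Figure D2:**
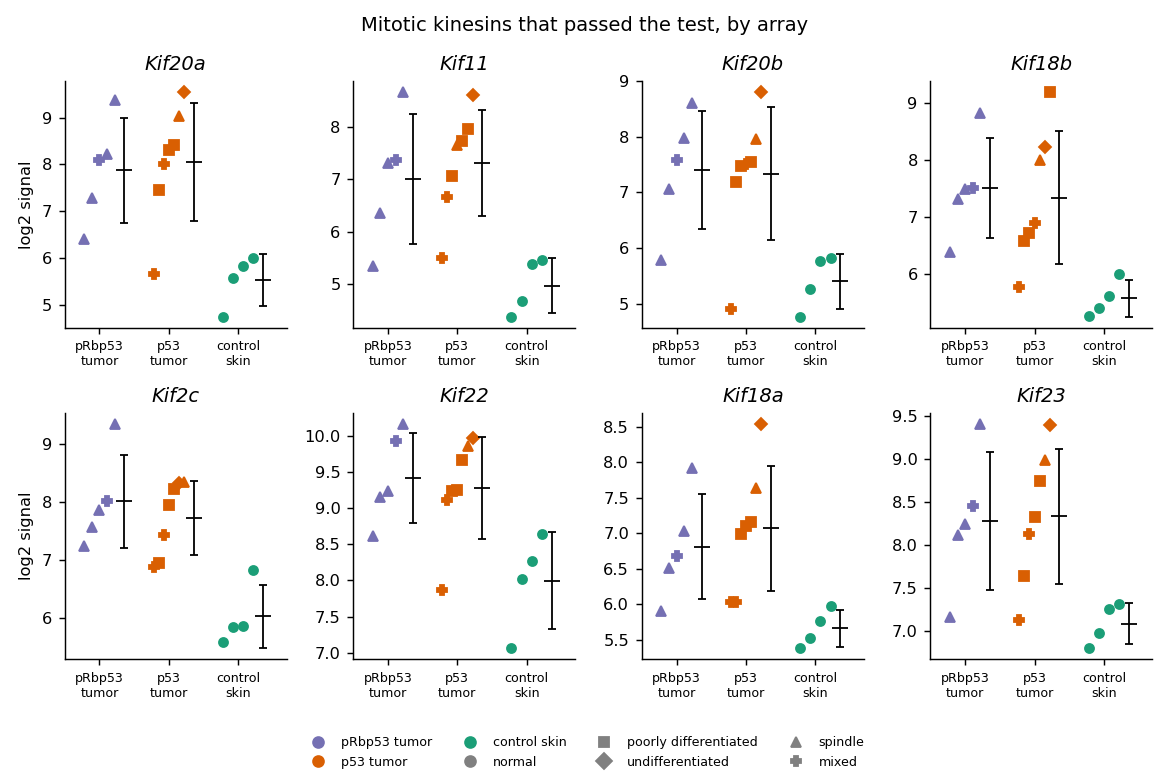
Log2 signal on each array of the 8 mitotic kinesins that passed the test, for pRbp53 tumors (n = 5), p53 tumors (n = 7) and control skin (n = 4). Symbols give the histology, and black bars the mean and SD of each group. For Kif2c every tumor lies above every control sample, and for the other 7 genes 1 or 2 tumors overlap control skin.

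A further 6 mitotic members did not pass. Kif4, a chromosome-bound motor that works with Prc1 in the midzone, differed by 1.19 ± 0.39 (adjusted p = 0.0549), and Kifc1, the minus-end motor that bundles spindle poles, by 1.04 ± 0.34 (adjusted p = 0.0580). The remaining 4 had small differences, with 0.22 for Kifc5b, a mouse paralog of Kifc1, 0.17 for the spindle motor Kif15, 0.15 for the cytokinesis motor Kif14 and 0.10 for the depolymerase Kif2b. Their probesets were dim, with means over all arrays of 4.42, 5.42, 3.23 and 3.47 beside array medians of 5.63 to 5.76. Whether the probesets of Kifc1 and Kifc5b separate these paralogs was not tested.

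The same few arrays set the extremes of the mitotic members that passed. Among tumors, p53 tumor 7 was lowest in 6 of the 8 and pRbp53 tumor 3 in 2, while pRbp53 tumor 2 was highest in 4, p53 tumor 3 in 3 and p53 tumor 2 in 1. Averaged over all 14 members, the class stood at 6.66 ± 0.62 in pRbp53 tumors (SD, n = 5), 6.68 ± 0.64 in p53 tumors (n = 7) and 5.46 ± 0.18 in control skin (n = 4). Only p53 tumor 7, at 5.52, fell within the control range of 5.19 to 5.56. Proliferation markers were likewise lowest among tumors in p53 tumor 7 (8.21) and next in pRbp53 tumor 3 (9.08), beside 7.54 to 8.70 in control skin. They averaged 10.11 ± 0.80 in tumors and 8.31 ± 0.53 in control skin, and 8 of 11 rose, beside 7.57% of all genes. What part the share of dividing cells has in the kinesin differences was not tested.

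**Figure D3:**
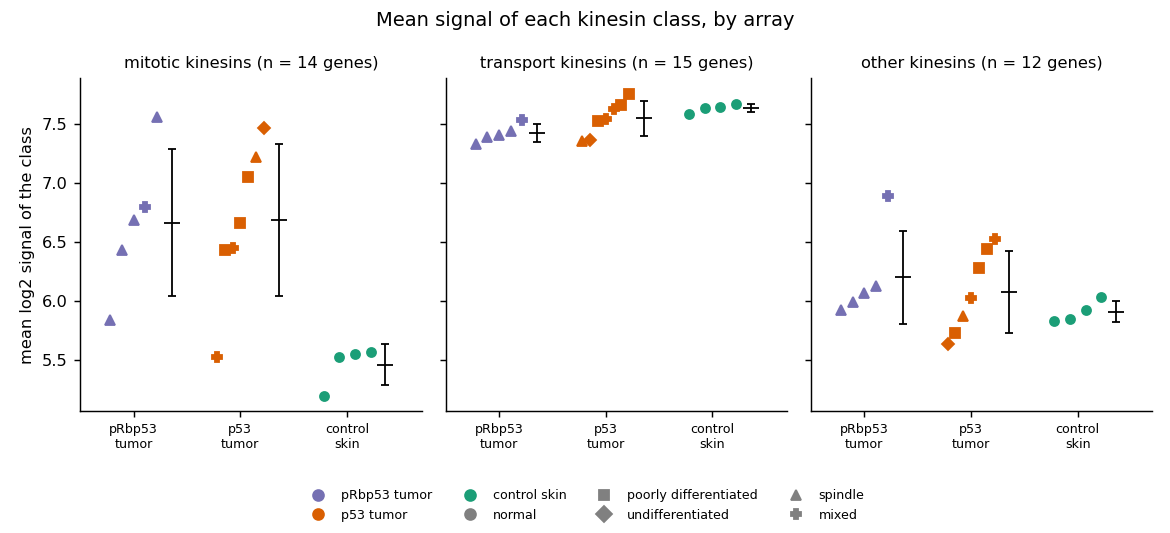
Mean log2 signal of the mitotic, transport and other kinesins on each array, for pRbp53 tumors (n = 5), p53 tumors (n = 7) and control skin (n = 4). Black bars give the mean and SD of each group. Mitotic means lie between 5.52 and 7.55 in tumors and between 5.19 and 5.56 in control skin. Transport means lie between 7.33 and 7.76 in tumors and between 7.58 and 7.66 in control skin.

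The mitotic calls rested on few control samples. Control skin 1 was the lowest control sample in 7 of the 8 genes, and without it 1 mitotic kinesin passed (Kif2c) and 4 kinesins in all. Without control skin 2 these counts were 4 and 8, and without control skin 3 or control skin 4 they were 5 and 9. Kif18a and Kif23 lost their calls without any one of the 4 control samples, and also without some single tumors (adjusted p up to 0.127 for Kif18a and 0.122 for Kif23). Without both control skin 3 and p53 tumor 7, 8 mitotic kinesins and 13 in all passed, of which 10 were shared, with Kif18a, Kif23 and Kif26b lost and Kif4, Kif6 and Kifc1 gained. The distance between the class medians was 1.22 to 1.43 with any 1 array left out.

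Genes whose products work beside the mitotic motors rose in most cases. Of 21 spindle partners, 18 rose and 0 fell, beside 7.57% of all genes higher and 9.17% lower. Their median difference was 1.92. They included Birc5 of the chromosomal passenger complex (2.91 ± 0.39), Spag5 (astrin), which stabilises kinetochore fibres (2.54 ± 0.51), and Ect2, which centralspindlin recruits to the midzone (2.54 ± 0.52). Among 6 regulators of cell cycle genes that act through the CHR, Mybl2 (1.52 ± 0.39, adjusted p = 0.0169) and Lin9 (1.11 ± 0.33, adjusted p = 0.0345) rose and the other 4 did not pass.

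The windows around the annotated starts were read from RefSeq (GRCm38.p6), with 250 bases before and 50 bases from each start. An entry was found for 33 of 41 kinesins. The missing ones are Kif13b, Kif20a, Kif21b, Kif28, Kif5a, Kif5b, Kifc2 and Kifc3. The CHR was searched as TTTGAA on both strands, and the CCAAT box, to which NF-Y binds, as CCAAT on both strands. A CHR match lay in 11 of 13 mitotic genes (84.6%), 1 of 10 transport genes (Kif1a, at 1 of its 2 starts) and 2 of 10 other genes (Kif26b and Kif27). It lay in 17.9% of all 32851 windows and in 20.2% of 27025 genes. Within 110 bases before and 30 bases from the start, 9 of 13 mitotic genes had a match, beside 7.77% of all windows. CCAAT matches lay in 9 of 13 mitotic, 3 of 10 transport and 4 of 10 other genes, beside 37.4% of all windows. CHR and CCAAT matches did not overlap each other. Kif18a and Kif2b were the mitotic genes with no CHR letters in the window, and a match is a run of letters, not a shown binding site. CHR matches also lay in Kif4, Kifc1, Kif14, Kif15 and Kifc5b, mitotic genes that did not pass the test.

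**Figure D4:**
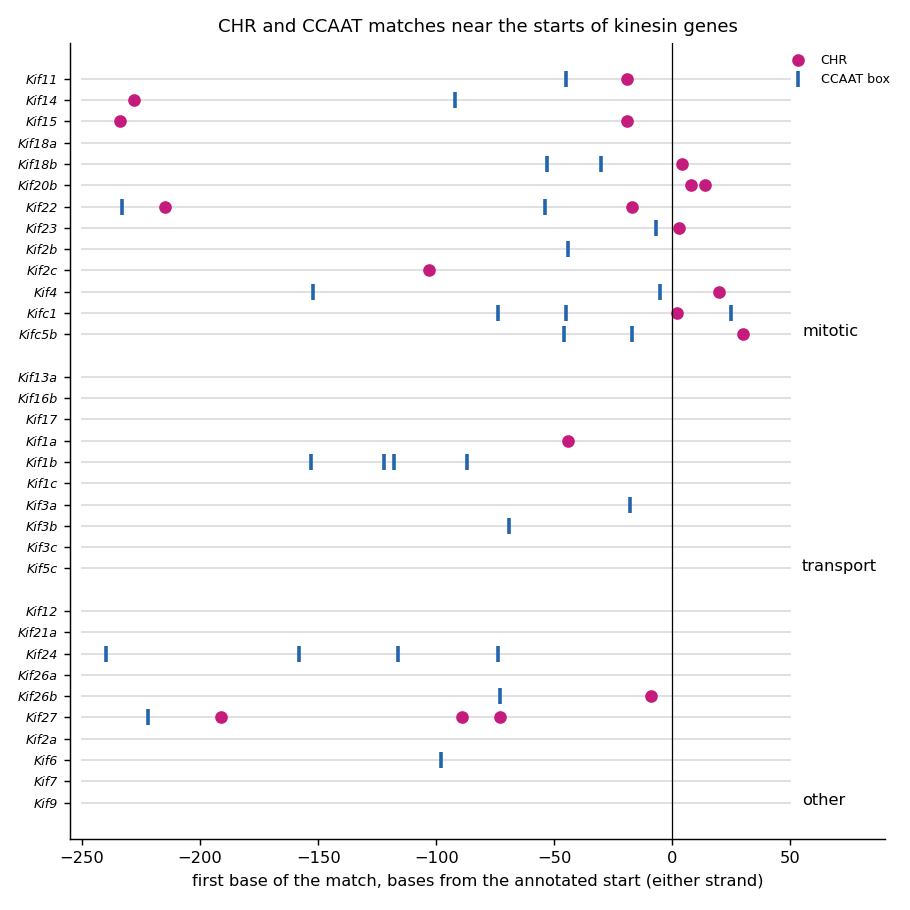
Positions of CHR (TTTGAA, circles) and CCAAT (bars) matches on either strand, in bases from the annotated start, for the 33 kinesins with an entry, by role. Each grey line is the 300-base window searched, and genes with several starts are drawn on 1 line. CHR matches fall in 11 of 13 mitotic genes and cluster near the start, against 1 of 10 transport genes.

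The core of these windows is shown for the 11 kinesins that passed the test in tumors against control skin and have an entry, so that members that moved together can be read side by side. Each runs 5′ to 3′ on the strand of its gene, from 110 bases before the start to 30 bases from it, with CHR and CCAAT letters (either strand) in capitals. On the plus strand they span chr19:37376272-37376411 for Kif11, chr2:109280628-109280767 for Kif18a, chr19:34922248-34922387 for Kif20b, chr1:178529015-178529154 for Kif26b, chr11:70700438-70700577 for Kif1c and chr11:53567259-53567398 for Kif3a. On the minus strand they span chr11:102925095-102925234 for Kif18b, chr7:127042391-127042530 for Kif22, chr9:61946770-61946909 for Kif23, chr4:117178743-117178882 for Kif2c and chr15:91049922-91050061 for Kif21a. The first 7 are mitotic genes that rose, then follow Kif26b and Kif3a, which rose, and Kif21a and Kif1c, which fell.
Kif11: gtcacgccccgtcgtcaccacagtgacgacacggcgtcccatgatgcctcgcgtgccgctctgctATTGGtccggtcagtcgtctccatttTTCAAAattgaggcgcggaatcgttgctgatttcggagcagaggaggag
Kif20b: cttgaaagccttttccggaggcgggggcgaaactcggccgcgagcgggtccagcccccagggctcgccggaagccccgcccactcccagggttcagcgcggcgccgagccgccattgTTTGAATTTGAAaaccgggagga
Kif18b: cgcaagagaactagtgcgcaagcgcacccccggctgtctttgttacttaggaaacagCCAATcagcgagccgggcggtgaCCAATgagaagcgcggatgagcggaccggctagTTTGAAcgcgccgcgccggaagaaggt
Kif2c: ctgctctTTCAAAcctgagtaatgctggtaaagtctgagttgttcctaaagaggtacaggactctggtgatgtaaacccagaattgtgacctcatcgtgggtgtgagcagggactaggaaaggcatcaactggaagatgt
Kif22: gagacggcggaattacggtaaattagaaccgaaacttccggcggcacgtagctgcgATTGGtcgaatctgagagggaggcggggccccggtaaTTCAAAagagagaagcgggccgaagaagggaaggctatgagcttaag
Kif18a: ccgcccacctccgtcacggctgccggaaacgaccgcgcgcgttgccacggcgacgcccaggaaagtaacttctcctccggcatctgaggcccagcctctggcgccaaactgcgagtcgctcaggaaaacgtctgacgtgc
Kif23: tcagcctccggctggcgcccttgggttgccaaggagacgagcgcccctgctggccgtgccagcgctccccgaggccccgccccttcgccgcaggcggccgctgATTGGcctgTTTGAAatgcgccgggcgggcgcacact
Kif26b: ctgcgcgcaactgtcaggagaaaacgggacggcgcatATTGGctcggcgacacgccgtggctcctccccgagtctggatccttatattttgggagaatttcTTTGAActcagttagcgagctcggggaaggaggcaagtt
Kif3a: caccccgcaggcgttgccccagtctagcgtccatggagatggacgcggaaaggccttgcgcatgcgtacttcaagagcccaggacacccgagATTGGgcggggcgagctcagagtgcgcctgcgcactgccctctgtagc
Kif21a: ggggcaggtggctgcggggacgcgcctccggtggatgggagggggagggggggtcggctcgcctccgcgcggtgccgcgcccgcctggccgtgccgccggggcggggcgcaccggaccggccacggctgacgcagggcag
Kif1c: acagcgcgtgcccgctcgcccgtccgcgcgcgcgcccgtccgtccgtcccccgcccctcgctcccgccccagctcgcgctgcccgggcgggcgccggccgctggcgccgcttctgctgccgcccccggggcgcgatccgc

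In these letters Kif11 and Kif22 share a layout, with an ATTGG run near 50 bases before the start and TTCAAA between it and the start. Their CHR matches begin at -19 and -17 and their CCAAT matches at -45 and -54. Kif20b has a doubled TTTGAA that begins at base 8 and no CCAAT. Kif18b, with CCAAT at -53 and -30, and Kif23, with CCAAT at -7, have TTTGAA just past the start. Kif2c has its CHR letters farther away, at -103. The windows of Kif18a, Kif21a and Kif1c show no capitals.

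Among transport kinesins, Kif3a rose while Kif1c and Kif13b fell. Kif3a, a motor subunit of the kinesin-2 that builds cilia, measured 8.73, 8.42, 8.17, 8.10 and 8.32 in pRbp53 tumors, 8.0 to 8.62 (median 8.20) in p53 tumors, and 7.59, 7.82, 7.29 and 7.53 in control skin. Every tumor exceeded every control sample. The difference was small and even, 0.74 ± 0.13 (1.67-fold, adjusted p = 0.0011), and 3 of its 4 probesets passed. Its partners gave less, since Kif3b (0.37) and Kif3c (0.55) did not pass. Of 15 genes of kinesin-2 and ciliary transport 2 rose and 0 fell, beside 7.57% of all genes higher and 9.17% lower. These were the intraflagellar transport genes Ift22 (1.11 ± 0.30) and Ift80 (0.79 ± 0.23).

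Kif1c, a kinesin-3 that carries vesicles along the cell's length, had 9.22, 9.26, 9.79, 8.32 and 9.88 in pRbp53 tumors, 9.36 to 10.18 (median 9.65) in p53 tumors, and 10.89, 10.75, 11.24 and 10.80 in control skin. No tumor reached the control range. The difference was -1.39 ± 0.25, that is 2.62-fold lower in tumors (adjusted p = 0.0014), and 3 of its 4 probesets fell. Kif13b, a kinesin-3 that binds the polarity protein Dlg1, had 7.17, 7.23, 7.73, 6.98 and 7.30 in pRbp53 tumors, 6.94 to 7.91 (median 7.28) in p53 tumors, and 8.40, 7.91, 8.12 and 7.76 in control skin. Its difference was -0.71 ± 0.18 (1.64-fold lower, adjusted p = 0.0124), and p53 tumors 1 and 5 overlapped control skin. Without control skin 1 its adjusted p was 0.0716. The 3 dimmer probesets of Kif13b gave 0.47, 0.07 and -0.23 and did not pass. The mean of all 4 differed by only -0.10 (adjusted p = 0.554), so the fall rests on the probeset used. Kif13a, its relative in endosome transport, stood at -0.81 ± 0.28 (adjusted p = 0.0702).

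For Kif1b and Kif5b the probesets disagreed. The probeset of Kif1b used here, a gene whose products move mitochondria and synaptic vesicle precursors, gave -0.55 ± 0.21 (adjusted p = 0.0980), but 4 of its other 6 probesets fell, the largest difference being -2.11 (adjusted p = 6.78e-04). Kif5b, the kinesin-1 heavy chain of most tissues, gave -0.04 ± 0.20, while 1 of its other 5 probesets fell by 1.60 (adjusted p = 0.0047) and the other 4 did not pass. Which transcripts these probesets read was not tested. Skeletal muscle markers were far lower on every tumor array (4.59 to 8.63, against 12.97 to 13.18 in control skin), and 12 of 12 of them fell. Adipocyte markers averaged 6.04 ± 0.70 in tumors and 10.08 ± 0.90 in control skin, and 6 of 6 measured ones fell (median -3.60). Leukocyte markers averaged 7.31 ± 0.79 in tumors and 8.65 ± 0.66 in control skin, and 3 of 7 measured ones fell. Over all genes, 9.17% were lower. The part of these cell types in the lower transport kinesins was not tested.

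The other transport members did not pass. Below 0 lay Kifc3 (-0.54), a minus-end motor at epithelial junctions, Kif16b (-0.52), which moves early endosomes, and Kifc2 (-0.36), a minus-end motor of dendrites. Above 0 lay Kif1a (0.46), which carries synaptic vesicle precursors, Kif17 (0.33), a dendritic and ciliary motor, and the neuronal kinesin-1 chains Kif5a (0.27) and Kif5c (0.13). Of 12 measured cargo partners of kinesin-1 and kinesin-3, 0 rose and 0 fell by limma, with a median of 0.09. In the dynein and dynactin list, the opposite motor, 1 of 14 passed, Ndel1 (-0.88 ± 0.15). Over all genes, 16.7% passed, with 7.57% higher and 9.17% lower. Neuron and Schwann cell markers averaged 5.34 ± 0.58 in tumors and 4.70 ± 0.10 in control skin, and 1 of 10 fell (Mbp, -1.64).

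The largest fall of the family was that of Kif21a, a kinesin-4 relative that restrains microtubule growth at the cell cortex. It measured 6.55, 6.18, 6.40, 6.10 and 6.34 in pRbp53 tumors, 5.18 to 9.55 (median 7.43) in p53 tumors, and 9.88, 10.03, 9.78 and 10.10 in control skin. All 12 tumors lay below control skin, p53 tumor 5 by the least. The difference was -3.01 ± 0.59 (8.05-fold lower, adjusted p = 0.0026), and another probeset gave -3.13 while its dimmest one did not pass. Kif26b, an atypical kinesin without motor activity that is needed for kidney development in mice, went the other way with 2.14 ± 0.63 (4.40-fold, adjusted p = 0.0327). It had 8.0, 8.04, 8.71, 8.12 and 8.55 in pRbp53 tumors, 4.71 to 9.46 (median 7.69) in p53 tumors, and 4.96, 5.90, 5.93 and 5.50 in control skin. In p53 tumor 5 it lay below every control sample, and it lost its call without control skin 1, 2, 3 or 4, each in turn (adjusted p up to 0.119).

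Of the other 10, Kif21b (1.06), the microtubule depolymerase Kif2a (0.63), Kif6 (0.50), Kif24 (0.44), which holds back ciliogenesis in cycling cells, Kif27 (0.29), Kif12 (0.21), the Hedgehog regulator Kif7 (0.19), Kif28 (0.13), Kif9 (0.03) and Kif26a (-0.02) did not pass. All 5 probesets of Kif2a had differences above 0, and none passed by limma. Single tumors stood out in this class. In pRbp53 tumor 4, of mixed histology, Kif26a measured 11.69 and Kif7 8.80. The other pRbp53 tumors, all spindle, had 6.16 to 7.37 and 6.36 to 6.72. Kif21b reached 10.17 in p53 tumor 7 and 10.09 in pRbp53 tumor 4, and 6.42 to 6.58 in control skin. The same pRbp53 tumor 4 had the highest Kif1a (7.36) and Kif5a (6.44) of all arrays.

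Each genotype was also set against the control skin, which both comparisons share. In pRbp53 tumors 11 of 41 kinesins passed (7 higher and 4 lower, beside 12.4% of probesets, 5.54% higher and 6.86% lower), and in p53 tumors 9 passed (6 higher and 3 lower, beside 12% of probesets, 5.57% higher and 6.38% lower). Kif2c differed by 1.99 in pRbp53 and 1.70 in p53 tumors, Kif20a by 2.34 in pRbp53 and 2.53 in p53 tumors, and Kif11 by 2.04 in pRbp53 and 2.35 in p53 tumors. Mitotic members gave 5 of 14 higher in each, with class medians of 1.25 in pRbp53 and 1.27 in p53 tumors. With 1 array left out, the mitotic count ran between 1 and 7 in pRbp53 tumors and between 0 and 10 in p53 tumors. Without control skin 1 it was 1 in pRbp53 tumors and 0 in p53 tumors, and without p53 tumor 7 it was 7 in pRbp53 tumors and 10 in p53 tumors. Kif21a differed by -3.63 in pRbp53 and -2.56 in p53 tumors, and Kif1c by -1.63 in pRbp53 and -1.22 in p53 tumors. Kif26b passed in pRbp53 tumors (2.71, adjusted p = 0.0179) and not in p53 tumors (1.73, adjusted p = 0.102), and Kif13a passed in pRbp53 tumors (-1.05, adjusted p = 0.0404). Kif13a lost this call without any one control sample, without pRbp53 tumor 1, 2, 3 or 4, without both control skin 3 and p53 tumor 7, and with the mean of its probesets.

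The direct comparison asks whether loss of pRb on top of p53 changed the motors. In pRbp53 against p53 tumors, 0 of 41 kinesins passed limma at an adjusted p of 0.1, beside 0.198% of probesets. None passed with any of the 12 tumors left out. None passed under 11 other alternatives either, but these include a stricter threshold, which could add none, and a repeat of the fit without p53 tumor 7. In the main fit, 1 had an unadjusted limma p under 0.05. That gene was Kifc3, with 7.72, 6.87, 7.36, 7.87 and 7.14 in pRbp53 tumors and 7.54 to 9.60 (median 7.88) in p53 tumors, a difference of -0.74 ± 0.34 (adjusted p = 0.532). Next came Kif1a (0.79 ± 0.36, adjusted p = 0.540), with 5.23, 5.11, 6.51, 7.36 and 5.18 in pRbp53 tumors and 4.83 to 5.43 in p53 tumors. Kifc5b (-0.35 ± 0.16, adjusted p = 0.546) had 4.26, 4.66, 4.09, 4.28 and 4.09 in pRbp53 tumors and 4.21 to 5.08 in p53 tumors. For all 3 the genotypes overlapped, and the 14 mitotic members had a median difference of -0.04.

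By grade, 2 of 41 kinesins passed in undifferentiated/spindle vs. poorly differentiated carcinomas, both lower, beside 7.39% of all probesets, 3.4% higher and 3.99% lower. Mitotic kinesins gave 0 of 14 by limma, also 0 at an unadjusted p under 0.05, with a median of 0.17. The list of proliferation markers gave 0 of 11, and spindle partners 0 of 21. Grade is partly tied to genotype, since the poorly differentiated tumors are all p53.

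Kifc2 measured 5.44 to 5.72 (median 5.67) in the 6 undifferentiated or spindle tumors and 6.32, 6.25 and 6.40 in the poorly differentiated tumors, p53 tumors 2, 4 and 5. The groups were separate, and the difference was -0.69 ± 0.10 (1.62-fold lower, adjusted p = 0.0039). Its other probeset gave -0.12 and did not pass. Kif21a measured 5.18 to 6.55 (median 6.26) in undifferentiated or spindle tumors and 7.43, 8.67 and 9.55 in the poorly differentiated ones, with no overlap. The difference was -2.42 ± 0.45 (5.34-fold lower, adjusted p = 0.0142), and another of its probesets gave -2.38. Without p53 tumor 4 its adjusted p was 0.0564. With the mixed tumors added to the poorly differentiated ones it did not pass. With genotype in the fit, the differences were -2.88 for Kif21a and -0.81 for Kifc2, and both passed, as did Kif7. All pRbp53 tumors in that fit are undifferentiated or spindle, so its differences rest on p53 tumors 3 and 6 against 2, 4 and 5.

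**Figure D5:**
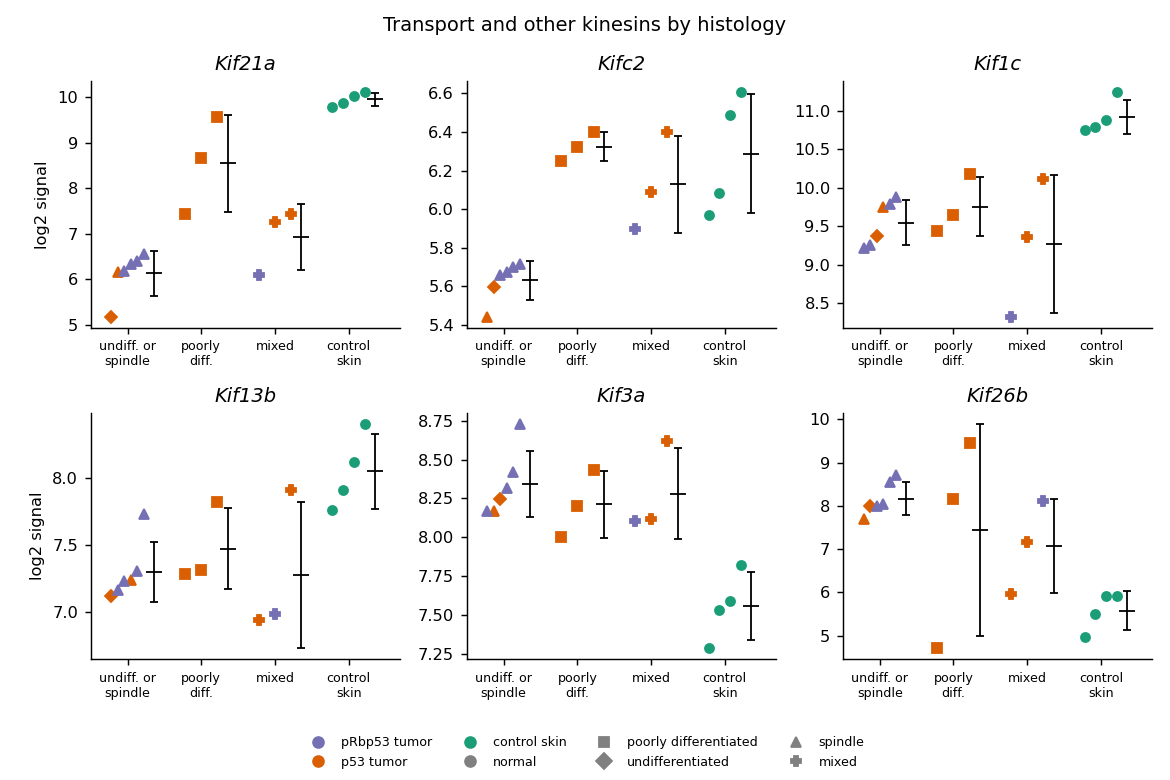
Log2 signal on each array of the 5 transport or other kinesins that passed in tumors against control skin and of Kifc2, by histology (undifferentiated or spindle n = 6, poorly differentiated n = 3, mixed n = 3, control skin n = 4). Colours give the genotype, and black bars the mean and SD. Kif21a lies at 5.18 to 6.55 in undifferentiated or spindle tumors, 7.43 to 9.55 in poorly differentiated tumors and 9.78 to 10.10 in control skin.

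Kif21a was at 6.10 to 6.55 in pRbp53 tumors and 9.78 to 10.10 in control skin. Keratinocyte markers averaged 4.46 to 5.08 in pRbp53 tumors and 12.07 to 12.32 in control skin. In p53 tumor 5, poorly differentiated by its label, Kif21a was at 9.55 while the markers averaged 4.51, as low as in the undifferentiated or spindle tumors (4.46 to 4.85). In p53 tumors 2 and 4 the markers averaged 8.97 and 8.46, with Kif21a at 7.43 and 8.67. In p53 tumor 7 they averaged 10.35, with Kif21a at 7.26. In p53 tumors 1, 3 and 6 they averaged 6.41, 4.85 and 4.51, with Kif21a at 7.43, 5.18 and 6.15. By grade the keratinocyte markers had a median difference of -2.91, with 0 of 11 passing. Of fibroblast markers 6 of 7 rose and of leukocyte markers 4 of 7, beside 4.49% of all genes. The part of these cell types in the lower Kif21a and Kifc2 was not tested.

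Beside 13.8% of probesets (6.81% lower and 6.99% higher) and 15.9% of genes, groups did not overlap by grade for 6 of 41 kinesins. Of these, 4 were lower and 2 higher. Besides Kif21a and Kifc2 these were Kifc3 (-1.20, adjusted p = 0.0856), Kif16b (-1.02, adjusted p = 0.101), Kif2a (0.95, adjusted p = 0.103) and Kif9 (0.22, adjusted p = 0.223). A dimmer probeset of Kif16b did pass (-0.52, limma adjusted p = 0.0478). Kifc3, Kif16b and Kif21a had their highest tumor value, and Kif2a its lowest, in p53 tumor 5, with 9.60, 9.04, 9.55 and 7.35. Of 12 measured cargo partners, 2 were lower by grade. These were Klc3, a kinesin light chain (-3.98 ± 0.33, adjusted p = 2.57e-04), and Madd, an adaptor for kinesin-3 (-0.65 ± 0.17, adjusted p = 0.0498). Of 15 ciliary transport genes 2 rose, Ift74 (1.20 ± 0.30) and Ift80 (0.82 ± 0.13). Over all genes, 4.49% were higher by grade and 4.64% lower.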

How the data were processed

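Values were the deposited log2 signal intensities, which the authors made with RMA (background correction, normalization between arrays and summary per probeset; version not given in the sources used here). Of 45101 probesets, 64 array controls were left out. A 2016 annotation gave 1 symbol for 34945 probesets, several for 932 and none for 9160, and all 41 kinesin gene IDs were found in the RefSeq table. Groups came from titles and histology labels. Members, roles and lists were chosen with earlier results of these data known.

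limma 3.58.1 in R 4.3.3 was fitted to all 45037 probesets, two-sided, with Benjamini-Hochberg adjustment at 0.05 (0.1 for genotype) over all of them, and the fits were tested on simulated data. Every kinesin was named, with per-array values for those that passed and for the 3 smallest p by genotype, plus up to 3 members that passed per partner list. Alternatives were a replicate block, filters, normalizations, priors, array weights, thresholds, Welch's test for the methods' t-test, probeset means and left-out arrays. The number of arrays limits the precision. Replicate numbers were not used as pairs in the main fits. Of 13 same-numbered pairs, 3 correlated above 0.1, and differently numbered pairs were not compared. Figures were drawn with matplotlib 3.10.9. Trp53 is not reported here.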

Additional observations from a re-analysis of the deposited data

Results flagged for a closer look

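Values set apart from the rest of their group, by a gap large against its range, were found 17 times among 132 groups tested. The rule flags about 1 in 20 by chance, but only for independent groups. These groups share the same 16 arrays and include class means of the same genes, so 17 is not set against that rate. Of the flags, 6 fell in pRbp53 tumor 4 and 5 in p53 tumor 7, both of mixed histology. The remaining mixed tumor, p53 tumor 1, had 1. All other pRbp53 tumors are spindle, and the part of histology in these flags was not tested. In pRbp53 tumor 4 the signal was above the other pRbp53 tumors for Kif26a (11.69), Kif7 (8.80), Kif5a (6.44), Kifc2 (5.90), Kif28 (3.88) and the mean of the other kinesins (6.88). For Kifc2 the step was small, as the other pRbp53 tumors had 5.66 to 5.72. The probeset of Kif28 was dim (mean over all arrays 3.19). In p53 tumor 7, which also stood apart in actin 3' minus 5' signal (1.67), the signal was far above the other p53 tumors for Kif21b (10.17), Kif5c (7.57) and Kif6 (6.72). It was far below them for Kif22 (7.87) and Kif20b (4.91).

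Single high values in other p53 tumors were Kifc3 in p53 tumor 5 (9.60), Kif24 in p53 tumor 2 (6.55) and Kif27 in p53 tumor 1 (6.0). In control skin, Kif12 was high in control skin 1 (4.36) and Kif6 in control skin 3 (5.18), and the mean of the mitotic kinesins was low in control skin 1 (5.19, against 5.52 to 5.56 in the other 3).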

How the results depend on the processing

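In tumors against control skin, 13 kinesins passed, and 4 to 16 with any 1 array left out. The number of mitotic kinesins that were higher, 8, was 1 to 10 in the same way (the 10 include Kif4 and Kifc1). Array weights gave 24 kinesins (11 mitotic, among 14405 probesets against 5949), an adjusted p of 0.01 gave 5 (2 mitotic), and control skin 2 and 4 averaged, added after seeing the data, gave 9 (5 mitotic). Kif2c, Kif3a, Kif1c and Kif21a passed under every alternative run for that comparison. In p53 tumors the count of 9 became 16 with array weights and 3 at 0.01, and 3 (without control skin 1) to 14 (without p53 tumor 7) with an array left out. In pRbp53 tumors the count of 11 became 22 with array weights, 4 at 0.01 and 6 with control skin 2 and 4 averaged, and 4 (without control skin 1) to 13 with an array left out, with 5 to 7 without any other control sample or without pRbp53 tumor 1, 2, 4 or 5. The genotype count was 0 in all 23 alternatives run. Among them, the stricter adjusted p of 0.05 could give only 0. Leaving out control skin 3 and p53 tumor 7 repeats, among tumors, the fit without p53 tumor 7. By grade the count of 2 was 1 at 0.01, 1 by Welch's test and 1 with mixed tumors added to the poorly differentiated ones. With an array left out it was 1 to 2 (1 without p53 tumor 4). Kif21a was the call lost in each. With genotype in the fit, which reads the grade difference from p53 tumors alone, the count was 3 (Kif7 gained). With the mean of all probesets of a gene it was 3 (Kif16b gained).

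In their deviations from group means, same-numbered samples correlated between -0.23 and 0.25. Differently numbered samples were not compared, so this cannot settle whether the numbers pair the samples. The replicate block gave 13 kinesins in tumors against control skin (12 shared, with Kif18a lost and Kif4 gained), 11 in pRbp53 tumors (10 shared, with Kif13a lost and Kif20b gained), 9 in p53 tumors (7 shared, with Kif13b and Kif18a lost and Kif18b and Kif20b gained), 0 by genotype and 0 by grade. Under it the probesets that passed by grade numbered 0 against 3326, and by genotype 35 against 89. By grade the block adds a term for each replicate number to a fit of few tumors. Little is then left to estimate the spread, so this 0 cannot tell weak calls from lost precision.

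The distance between mitotic and transport medians was 1.08 to 1.94 over 11 other alternatives (main value 1.30). Signs turned only for members that did not pass. Kif26a (-0.02) was 0.23 with the block, 0.0257 with median centring, 0.0221 without control skin 3 and p53 tumor 7, 0.0187 with genotypes at equal weight, and -0.398 to 0.123 with an array left out. Kif5c (0.13) was -0.0242 with the block, -0.0269 with array weights, -0.00539 without those 2 arrays, and -0.0459 to 0.234 with 1 left out. Kif9 (0.03) was -0.0678 with the block, -0.00332 with array weights, -0.0801 without those 2 arrays, -0.0468 to 0.0641 with 1 left out, and by grade -0.0149 with mixed tumors added. Kif5b (-0.04) was 0.0109 with median centring and -0.0739 to 0.0513 with 1 left out, and Kif7 (0.19) was -0.00345 to 0.315.

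Probesets that passed in tumors against control skin numbered 3057 at 0.01, 8987 by Welch's test, 3890 with 1 mean per gene and 3744 without control skin 1. Other counts that moved by over 1.5 times ranged from 2571 to 10027 in p53 tumors (main 5382), 2660 to 12394 in pRbp53 tumors (5585), 25 to 288 by genotype (89) and 0 to 2217 by grade (3326).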
